A study of Homo sapiens with 12 samples.

Results

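The genes described here are 47 genes of DNA replication and of the step from G1 into S phase of the cell cycle. Their proteins act at these steps. Each gene was taken from the locus whose gene name in the expression files held its symbol, and all 47 matched exactly 1 locus, of 30574 loci listed per library. All 47 were among the 12182 loci that passed a filter on low values and were tested. RNA was measured by sequencing in IOSE80 cells, which the labels describe as immortalized cells of the ovarian epithelium. The cells had been kept for 28 days with 0.1% dimethyl sulfoxide (DMSO, 3 libraries), bisphenol A (BPA) at 0.25 nM (3 libraries), BPA at 2500 nM (3 libraries) or E2 (2 libraries). BPA, a monomer of polycarbonate plastics, binds oestrogen receptors weakly. E2 commonly stands for oestradiol. The labels give no dose for E2 and no solvent for BPA or E2, so that DMSO is taken here as the control. E2 replicate 3 was not analysed here. The labels do not state whether replicates came from separate cultures. The p-values therefore measure only the spread between these libraries, which may be technical.

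A dividing cell copies its genome by a fixed sequence of steps. In G1 the origin recognition complex (ORC), CDC6 and CDT1 load the ring-shaped MCM2 to MCM7 helicase onto DNA. At the start of S phase kinases and further subunits (CDC45 and the GINS proteins) switch the helicase on. DNA polymerases alpha, delta and epsilon then copy the opened strands, with a sliding clamp (PCNA) that a clamp loader (the RFC proteins) places on DNA. Many genes of this machinery are transcribed in late G1 through E2F transcription factors, and for this reason their RNA levels are often read as a measure of how many cells of a culture are cycling. In RNA of a whole culture, fewer cells in S phase and less RNA per cell cannot be told apart.

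Promoters of some of these genes are printed here because they hold the E2F-type motif. The motif was searched on both strands as TTTCCCGC, TTTCGCGC, TTTGCCGC or TTTGGCGC, from 250 bases before to 50 bases after each RefSeq transcription start (build GRCh38.p14). The sequences below read 5′ to 3′ on the strand of the gene, with the motif in capitals on whichever strand it lies. A motif on the other strand therefore reads backwards, as in GCGGGAAA for TTTCCCGC. In MCM6, a helicase subunit, a forward and a reverse match overlap at both places, so each stretch of capitals has 12 bases. The stretch of MCM6 lies at chr2:135876444-135876603 on the minus strand.
MCM6: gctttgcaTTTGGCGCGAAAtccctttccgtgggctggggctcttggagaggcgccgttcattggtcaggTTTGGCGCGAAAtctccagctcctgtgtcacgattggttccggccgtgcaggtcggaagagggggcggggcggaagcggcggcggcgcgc
The short stretches that follow come from a helicase subunit, a helicase loading factor, polymerase subunits, the clamp, a clamp loader subunit, an enzyme of nucleotide supply and an E2F factor. They lie at chr7:100101398-100101427 (minus, MCM7), chr16:88803743-88803772 (plus, CDT1), chr11:65261902-65261931 (plus, POLA2), chr12:132687343-132687372 (minus, POLE), chr20:5126663-5126692 (minus, PCNA), chr13:33818089-33818118 (plus, RFC3), chr18:657603-657632 (plus, TYMS) and chr20:33686393-33686422 (minus, E2F1). Each stretch lies before a RefSeq start, but other annotated transcripts of the gene can cover it. All printed bases of MCM7, CDT1, POLA2 and RFC3 lie in annotated exons of the same gene, as do 23 of the 30 of POLE. The stretches of TYMS, PCNA and E2F1 were cut from longer ones that overlapped such exons in part.
MCM7: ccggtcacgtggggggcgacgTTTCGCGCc
CDT1: ccagggcgcccGCGGGAAAtttggcgggaa
POLA2: ctcccggTTTCGCGCatgcgtgcactgcac
POLE: ctgggtgggagcGCGCCAAAtttctcccct
PCNA: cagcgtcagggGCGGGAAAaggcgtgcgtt
RFC3: agctcGCGGGAAAacttgtctctgcgttgt
TYMS: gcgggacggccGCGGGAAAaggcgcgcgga
E2F1: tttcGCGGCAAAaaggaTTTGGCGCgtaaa

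RefSeq's promoter table held 41 of the 47 genes, and 21 of the 41 (51.2%) had at least 1 E2F-type motif in a window. Of all 27305 genes of that table, 1090 (3.99%) had one, and so did 499 of the 7376 genes (6.76%) whose locus was tested and named no other gene. Some genes have several windows, and counted by window the motif stood in 21 of 52 (40.4%) against 1164 of 35116 (3.31%). All 4 MCM2 to MCM7 genes in the table had it, as did all 3 of the loading factors CDC6, CDT1 and GMNN and both polymerase epsilon subunits. It was found in 4 of 7 helicase activation genes, 1 of 5 ORC genes, 1 of 4 genes of nucleotide supply and 0 of 2 polymerase delta genes. The motif lay close to the start in most of these genes, for instance at bases -9 to -2 in MCM7 and -18 to -11 in POLE. A second sequence, CCAAT on either strand, stood in the windows of 25 of the 41 genes (61%), against 39.7% of all genes of the table and 43.4% of the tested ones. Other gene lists were counted in the same way. Of 43 further replication genes in the table, 16 (37.2%) had the E2F-type motif and 23 (53.5%) had CCAAT. Of 20 regulators of G1 and S phase, 5 (25%) had the motif and 9 (45%) had CCAAT. Of 29 genes of G2 and mitosis in the table, 3 (10.3%) had the E2F-type motif and 25 (86.2%) had CCAAT. Of 23 genes of quiescence and of kinase inhibitors, 3 (13%) had the motif and 16 (69.6%) had CCAAT. A match describes these letters only, and no binding of a factor was measured.

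**Figure D1:**
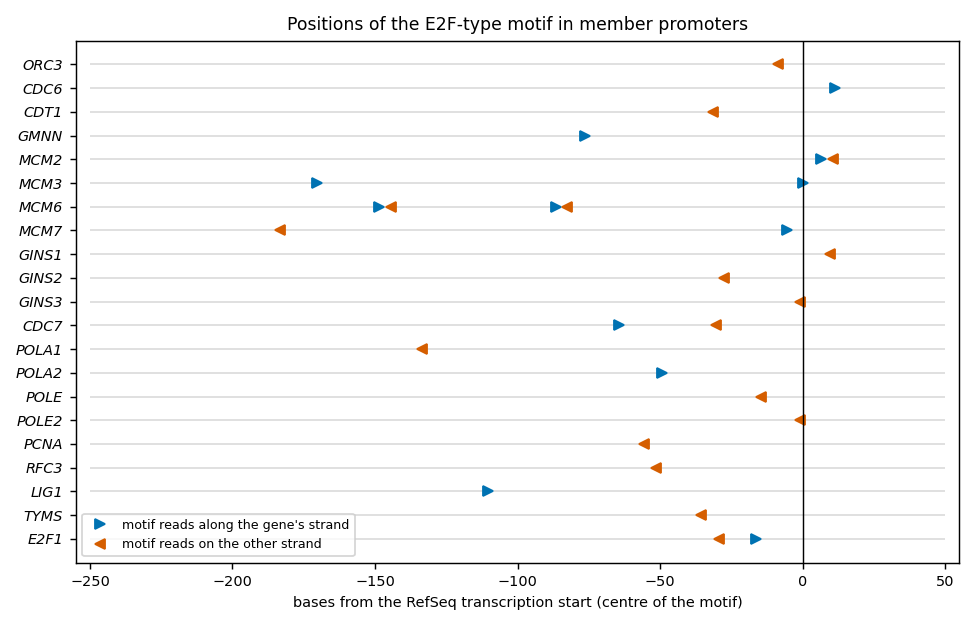
Position of each E2F-type motif in the promoter windows of the 21 members that hold one. The x axis gives bases from the RefSeq transcription start (vertical line), and arrowheads mark motifs on the strand of the gene or on the other strand; most lie within 100 bases of the start.

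The libraries were alike in their totals. The summed FPKM, a fragment count divided by transcript length and library size, lay between 206719 and 213663 per library, and 21223 to 23696 loci were above 0. Read depth is unknown, since the values show no steps of single reads. E2 replicate 2 and DMSO replicate 2 lay at the low end of the first principal component (-18.4 and -12.6, 15.9% of the variance), so counts are given with and without them below. Mitochondrial loci held 13.63% to 14.31% of the FPKM in DMSO, 12.62% to 12.66% with BPA 0.25 nM, 12.94% to 13.62% with BPA 2500 nM, and 14% and 12.26% with E2, and the part of this in the results was not tested. Of 14 markers of ovarian surface epithelium with a locus, 4 had a mean of at least 1 FPKM: ALDH1A1 (109), KRT18 (22.8), NR2F2 (3.19) and KRT8 (1.34). The others, namely WT1, PAX8, MSLN, KRT7, KRT19, UPK3B, CALB2, BNC1, LHX9 and GATA4, had means of at most 0.191 FPKM. The summed level of the surface epithelium markers was 134.3 to 150.7 FPKM in DMSO, 133.5 to 143.3 with BPA 0.25 nM, 121.8 to 127.3 with BPA 2500 nM and 141.2 to 143.1 with E2, and its part in the results was not tested either. Of 11 mesenchymal markers, VIM (688 FPKM), S100A4 (58.6), COL3A1 (28.7) and PDGFRA (5.23) reached 1 FPKM, while COL1A1, COL1A2, DCN, LUM, PDGFRB, FN1 and CDH2 lay below 0.6. Of 5 general epithelial markers MUC1 (6.47) did so and EPCAM and CDH1 did not, and of 4 granulosa markers FOXL2 (6.78) and INHA (1.28) did. Of the leukocyte markers reported here, PTPRC and LYZ lay near 0, and the endothelial CDH5 was near 0. The locus that names CD68 stood at 46 FPKM, but it also names SENP3 and EIF4A1, so this level cannot be assigned to CD68. The loci of MUC1 and PDGFRA likewise name other genes, among them KRTCAP2 and FIP1L1, and their levels have the same limit. In DMSO, BPA 0.25 nM, BPA 2500 nM and E2 in turn, the summed levels were 736.2 to 921.1, 736.1 to 766.5, 713.4 to 915.7 and 720.1 to 833.0 FPKM for the mesenchymal list. Its part in the results was not tested.

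The replication genes were well expressed in these cells. As FPKM, which is scaled to transcript length and so can be compared between genes, their means over all 11 libraries ran from 4.54 for POLD3 to 166 for PCNA. These 2 ends stood at the 44.8th and the 99th percentile of the tested loci. After PCNA came TYMS, which makes the thymidine nucleotide, at 107 FPKM. MCM7 (62), RRM1 (61.5), RPA2 (57.7), MCM3 (57.2) and MCM6 (54.7) followed close together. Levels within a complex were not equal: the 6 helicase subunits, which form one ring, ran from 22.2 FPKM for MCM5 to 62 for MCM7. Within DNA polymerase delta the small subunit POLD2 stood at 22.5 FPKM, the catalytic subunit POLD1 at 7.94 and POLD3 at 4.54. In the single-strand binding protein RPA, subunit RPA2 stood at 57.7, RPA1 at 41.5 and RPA3 at 12.6 FPKM.

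Some of these loci hold more than the gene. The locus of MCM7 also names MIR25, MIR93 and MIR106B, and those of POLA2, PRIM1, POLD1, POLD3 and FEN1 also name other genes. The FEN1 locus, joined with FADS2, spans 74437 bases where the annotated gene spans 4608. TYMS has 39.1% of its exonic bases under ENOSF1 on the opposite strand, MCM2 22.7% under AC023593.1 and GINS4 21.2% under AC009630.2. Strand-specific counting is not stated in the labels. The values of these loci may therefore hold reads of the opposite gene, by an amount that was not measured.

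Against DMSO, most of the 47 genes had a higher mean in each treated group, by small amounts, and none passed the test. The log2 change of FPKM + 1 was above 0 in 34 of 47 genes with BPA 0.25 nM (50.3% of all tested loci), in 35 with BPA 2500 nM (42.8% of all loci) and in 37 with E2 (48.1% of all loci). The median log2 change of the 47 was 0.092, 0.061 and 0.13 in that order, where the medians over all 12182 tested loci were 0.001, -0.027 and -0.007. Under limma with Benjamini-Hochberg adjustment over all tested loci, 0 of 47 had an adjusted p under 0.05 in any of these comparisons. The calls among all tested loci were 0.0164%, 1.3% and 0.419%, or 2, 158 and 51 loci. Leaving out 1 library at a time gave 0 to 9, 32 to 251 and 7 to 190 such loci. For BPA 0.25 nM the highest count came without DMSO replicate 3. For BPA 2500 nM the lowest count came without BPA 2500 nM replicate 1 or 2 and the highest without E2 replicate 2, and for E2 the lowest came without BPA 2500 nM replicate 2 and the highest without E2 replicate 1. The 3 comparisons use the same DMSO libraries, so a low DMSO library would raise all of them together.

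**Figure D2:**
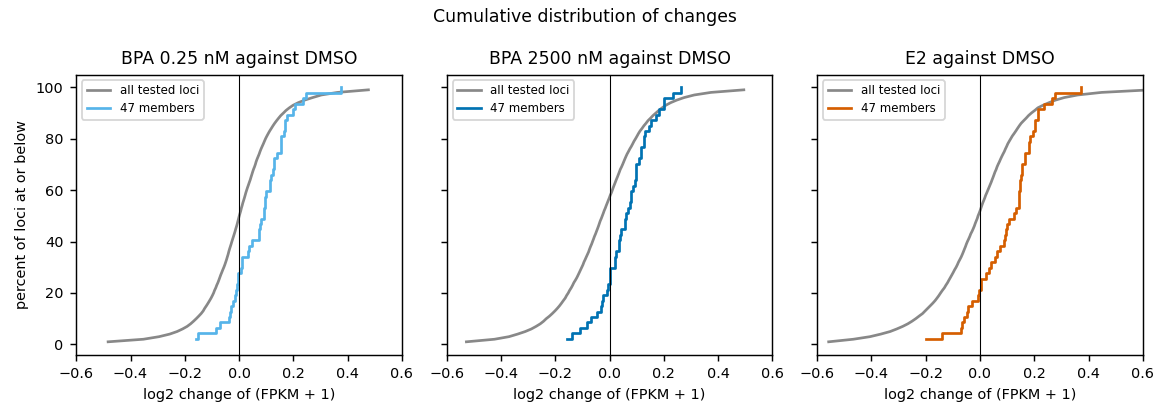
Cumulative share of loci (y axis, percent) by log2 change of FPKM + 1 (x axis) for all tested loci and for the 47 members, in each comparison with DMSO. The members' curves lie to the right of the curve of all loci over most of their length, with medians of 0.092, 0.061 and 0.13.

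At an unadjusted p under 0.05, without correction for the number of loci, 13 genes were higher and 0 lower with BPA 0.25 nM, against 5.24% of all loci higher, 3.87% lower and 9.11% in either direction. With BPA 2500 nM 9 were higher and 1 lower, against 6.05% and 11.2% of all loci and 17.2% in either direction. With E2 13 were higher and 0 lower, against 6.2% and 9.22%, together 15.4%. These counts changed when single libraries were left out. The share of all loci at that p in the reduced fits is not given here, so a drop common to all loci cannot be told apart. With BPA 0.25 nM the count fell to 6 without DMSO replicate 2, to 5 without BPA 0.25 nM replicate 2 and to 7 without BPA 0.25 nM replicate 3. With BPA 2500 nM the count of 10 in either direction became 4 when DMSO replicate 2 was left out. It became 3 when BPA 2500 nM replicate 2 was left out, and the median of 0.061 became 0.037 in both cases. With E2 the count became 7 without E2 replicate 2. Without the second replicate of both DMSO and E2, a choice made after seeing the data, the counts were 8, 5 and 5 and the medians 0.062, 0.037 and 0.094.

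Values per library for the whole set separated DMSO from BPA 0.25 nM and from E2, and overlapped for BPA 2500 nM. The median deviation of the 47 genes from their own means over all libraries, on the log2 scale, was -0.051, -0.078 and -0.043 in DMSO. It was 0.024, 0.028 and 0.018 with BPA 0.25 nM, 0.007, 0.044 and -0.049 with BPA 2500 nM, and 0.049 and 0.072 with E2. The 3 DMSO libraries lay lowest together with BPA 2500 nM replicate 3, which fell between them, and the SD within groups was 0.028. The same value over all loci lay between -0.035, in BPA 2500 nM replicate 3, and 0.023. The summed FPKM of the 47 genes was 1204, 1150 and 1235 in DMSO, 1277, 1296 and 1290 with BPA 0.25 nM, 1274, 1328 and 1204 with BPA 2500 nM, and 1280 and 1266 with E2.

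**Figure D3:**
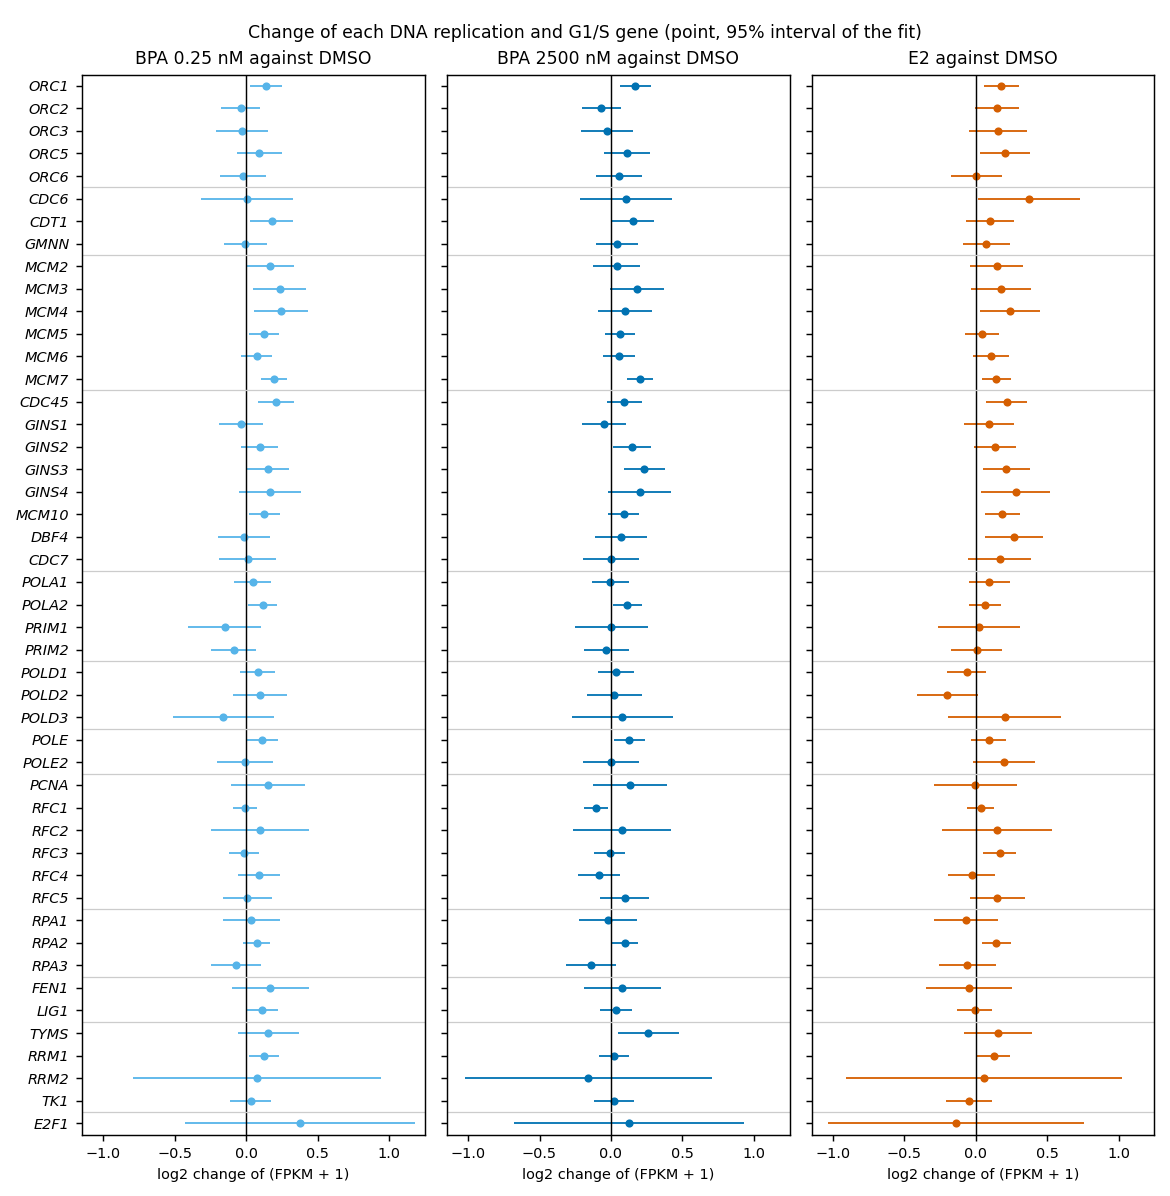
Log2 change of FPKM + 1 against DMSO (points) with the 95% interval of the fit (lines) for each of the 47 members, ordered by role with grey lines between roles. Most points lie between -0.2 and 0.3, and RRM2 and E2F1 have the widest intervals.

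Among the origin recognition genes, ORC1 was the only one that lay above all DMSO libraries in every treated group. ORC1 is the subunit whose level in many cell types follows the cell cycle. Its locus lies at chr1:52372829-52404423 on the minus strand (GRCh38). It was at 15.04, 16.14 and 16.99 FPKM in DMSO, 17.95, 17.91 and 17.40 with BPA 0.25 nM, 18.55, 18.32 and 17.63 with BPA 2500 nM, and 18.31 and 18.28 with E2. All 8 treated libraries lay above all 3 DMSO libraries, a pattern whose share over all loci was not computed. The log2 changes were 0.14 (adjusted p = 0.468, limma), 0.17 (0.125) and 0.18 (0.16). The other ORC genes, at means of 9.48 to 19.9 FPKM over all libraries, showed no common order: ORC5 lay above all DMSO libraries with BPA 0.25 nM and with E2, ORC2 with E2, and ORC3 and ORC6 overlapped DMSO in every group. ORC5 also had positive log2 changes in all 3 comparisons (0.093, 0.11 and 0.20), and with E2 its change was larger than that of ORC1. Over the 5 ORC genes the median log2 change was -0.022, 0.056 and 0.16.

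Of the factors that load the helicase, CDT1 and CDC6 differed in where they were high. CDT1, which brings the helicase ring to the origin, was at 13.15, 12.05 and 12.67 FPKM in DMSO, 14.54, 15.15 and 13.56 with BPA 0.25 nM and 14.18, 14.09 and 14.14 with BPA 2500 nM, above DMSO in all 6 BPA libraries. With E2 it was at 14.77 and 12.48, on both sides of the DMSO values. CDC6, an ATPase that acts with ORC, was above all DMSO libraries with E2 and overlapped them with both BPA doses. With E2 it was at 17.07 and 19.06 FPKM against 11.82, 12.83 and 16.95. Its log2 change there was 0.37 ± 0.16 (SE, adjusted p = 0.31, limma). GMNN, the inhibitor of CDT1, overlapped DMSO in every treated group, with log2 changes of -0.005, 0.042 and 0.074.

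The MCM2 to MCM7 helicase genes shared a direction: all 6 had a mean above DMSO in each treated group, with a median log2 change of 0.18 for BPA 0.25 nM, 0.08 for BPA 2500 nM and 0.14 for E2. The locus of MCM7 lies at chr7:100092728-100101940 on the minus strand, and the stretch printed above lies inside it, within annotated exons. MCM7 had the smallest p of all members for both BPA doses. It was at 56.96, 54.51 and 57.40 FPKM in DMSO, 65.20, 64.02 and 64.77 with BPA 0.25 nM, 62.98, 65.63 and 65.87 with BPA 2500 nM, and 64.25 and 60.31 with E2. All 8 treated libraries lay above DMSO, the lowest of them being E2 replicate 2. The log2 changes were 0.20 (95% interval 0.11 to 0.29, adjusted p = 0.253), 0.20 (0.11 to 0.29, adjusted p = 0.0503) and 0.14 (0.042 to 0.24, adjusted p = 0.172) under limma. The second lies next to the threshold. It was 0.0349 without E2 replicate 1, 0.0351 without E2 replicate 2, 0.0471 when only loci of a mean FPKM of at least 5 were tested and 0.042 when libraries were rescaled by their median of ratios, and in those 4 fits MCM7 was the 1 member called. Over all alternatives it ran from 0.0349 to 0.142, the highest being without BPA 2500 nM replicate 3.

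MCM3 and MCM4 had larger but less even changes with BPA 0.25 nM. MCM4 was at 23.86, 21.80 and 23.89 FPKM in DMSO and 24.13, 29.35 and 29.82 with BPA 0.25 nM, so that replicate 1 was just above the DMSO libraries and the others well above. It was at 25.68, 25.96 and 23.06 with BPA 2500 nM, where it overlapped DMSO, and 28.14 and 26.83 with E2. Its log2 changes were 0.25 (adjusted p = 0.45, limma), 0.098 and 0.24 (adjusted p = 0.269). MCM3 was at 54.15, 52.83 and 47.45 FPKM in DMSO, 53.98, 60.15 and 68.53 with BPA 0.25 nM, 59.95, 58.56 and 56.79 with BPA 2500 nM, and 60.33 and 56.35 with E2. The first BPA 0.25 nM library lay within the DMSO range, and every other treated library lay above it. MCM2 and MCM6 lay above all DMSO libraries with E2, and MCM5 with each BPA dose.

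The genes that switch the helicase on showed their widest separation with E2, where all 8 had a mean above DMSO, at a median log2 change of 0.2 (0.11 for BPA 0.25 nM and 0.091 for BPA 2500 nM, each with 6 of 8 above 0). CDC45, the subunit that joins the ring at the start of S phase, was at 12.05, 11.68 and 13.25 FPKM in DMSO, 13.75, 15.27 and 14.11 with BPA 0.25 nM, 13.07, 13.42 and 13.13 with BPA 2500 nM, and 14.43 and 14.46 with E2. Its BPA 0.25 nM and E2 libraries lay above DMSO, while those of BPA 2500 nM overlapped DMSO replicate 3. The log2 changes were 0.21 (adjusted p = 0.39, limma), 0.094 (0.418) and 0.21 (0.147). GINS3, of the GINS complex, was at 5.07, 5.79 and 5.13 FPKM in DMSO, 5.76, 6.03 and 6.32 with BPA 0.25 nM, 6.11, 6.26 and 6.97 with BPA 2500 nM, and 6.43 and 6.23 with E2. Only BPA 0.25 nM replicate 1 fell below the highest DMSO library. With BPA 2500 nM its log2 change was 0.23 ± 0.065 (SE, adjusted p = 0.113, limma).

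MCM10, which helps to open the double helix at the origin, was at 11.43, 11.22 and 11.12 FPKM in DMSO and 13.16 and 12.73 with E2, a log2 change of 0.19 (adjusted p = 0.147, limma). With BPA 0.25 nM it was at 11.99, 12.32 and 12.85, also above DMSO, and with BPA 2500 nM at 12.20, 12.56 and 11.36, where replicate 3 overlapped DMSO. DBF4, the activator of the CDC7 kinase, was at 7.70 and 8.68 FPKM with E2, above the 6.95, 7.19 and 5.81 of DMSO. CDC7 itself, at 17.63 and 21.77 with E2, overlapped the 16.47, 19.04 and 16.63 of DMSO. GINS2 lay above DMSO with BPA 2500 nM and with E2, GINS4 with E2 only, and GINS1 overlapped DMSO in every group.

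**Figure D4:**
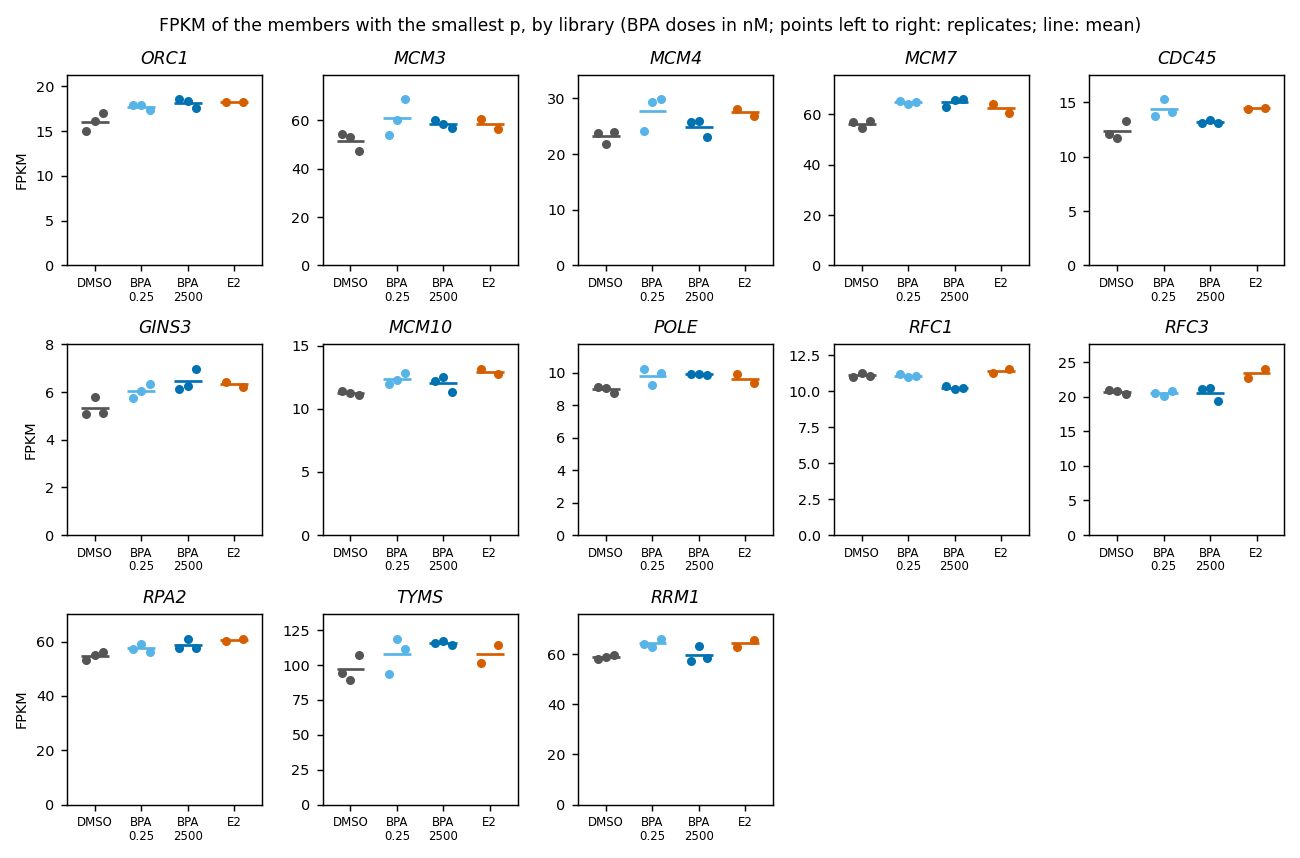
FPKM (y axis) in each library (points) and group means (lines) for the 13 members with the smallest p in at least 1 comparison with DMSO. In ORC1, MCM7, POLE and RPA2 all 8 treated libraries lie above all 3 DMSO libraries. The share of all loci with this pattern was not computed. RFC1 is lowest with BPA 2500 nM and RFC3 highest with E2.

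Among the polymerases the changes were mixed in sign. POLE, the catalytic subunit of polymerase epsilon, which copies the leading strand, was at 9.12, 9.07 and 8.77 FPKM in DMSO, 10.23, 9.22 and 10 with BPA 0.25 nM, 9.91, 9.94 and 9.87 with BPA 2500 nM, and 9.94 and 9.34 with E2. All 8 treated libraries lay above DMSO, the closest being BPA 0.25 nM replicate 2. The largest of its log2 changes was 0.13, with BPA 2500 nM (adjusted p = 0.225, limma). POLA2, of the polymerase alpha complex that makes primers, lay above DMSO with both BPA doses (log2 0.12 and 0.11) and overlapped it with E2. POLE2, the second subunit of polymerase epsilon, was at 8.01 and 8.0 FPKM with E2, above the 6.87, 6.4 and 7.33 of DMSO (log2 0.20, adjusted p = 0.373, limma), and overlapped DMSO with both BPA doses. POLD3 had a log2 change of 0.20 with E2 and overlapped DMSO. POLD2 went the other way with E2: its libraries, at 19.56 and 19.23 FPKM, lay below all 9 others, which ran from 20.78 to 25.49. Its log2 change from DMSO was -0.20 ± 0.095 (SE, adjusted p = 0.357, limma), and POLD2 is named here after its values were seen.

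Subunits of the clamp loader differed in sign. RFC1, the large subunit of the clamp loader, was at 11.01, 11.30 and 11.10 FPKM in DMSO, 11.22, 10.99 and 11.08 with BPA 0.25 nM, 10.40, 10.15 and 10.23 with BPA 2500 nM, and 11.27 and 11.56 with E2. The 3 BPA 2500 nM libraries lay below all 8 others. The log2 change from DMSO was -0.11 (95% interval -0.19 to -0.024, adjusted p = 0.189, limma), and RFC1 was the 1 member lower than every DMSO library at that dose. RFC3, a small subunit, was at 20.97, 20.81 and 20.40 FPKM in DMSO, 20.51, 20.18 and 20.91 with BPA 0.25 nM, 21.20, 21.24 and 19.33 with BPA 2500 nM, and 22.73 and 24.03 with E2. Here both E2 libraries lay above the 9 others (log2 0.17 from DMSO, adjusted p = 0.175, limma). PCNA, the clamp, varied more between libraries than between groups, at 132.89 to 170.41 FPKM in DMSO, 161.35 to 186.21 with BPA 0.25 nM, 148.26 to 185.38 with BPA 2500 nM, and 156.39 and 156.44 with E2.

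Of the proteins that hold and join DNA strands, RPA2 was at 53.23, 55 and 56.11 FPKM in DMSO, 57.35, 59.33 and 56.33 with BPA 0.25 nM, 57.52, 61.18 and 57.61 with BPA 2500 nM, and 60.24 and 60.94 with E2. All treated libraries lay above DMSO, and the log2 changes were 0.073, 0.099 and 0.14 (adjusted p = 0.179 for E2, limma). RPA1 and RPA3, its partners in one complex, overlapped DMSO in all 3 treated groups. LIG1, the ligase that joins Okazaki fragments, lay above DMSO with BPA 0.25 nM (log2 0.11, adjusted p = 0.544, limma) and overlapped it otherwise. FEN1, the flap nuclease of the same step, overlapped DMSO in each group.

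In nucleotide supply, TYMS was tightest with BPA 2500 nM. It was at 94.30, 89.06 and 107.20 FPKM in DMSO, 93.96, 119.06 and 111.77 with BPA 0.25 nM, 116.18, 117.30 and 114.47 with BPA 2500 nM, and 101.27 and 114.61 with E2. The 3 BPA 2500 nM libraries lay above DMSO, and the libraries of the other 2 treatments overlapped it. The log2 change with BPA 2500 nM was 0.26 (95% interval 0.049 to 0.48, adjusted p = 0.208, limma). RRM1, the large subunit of ribonucleotide reductase, was at 57.92, 58.86 and 59.64 FPKM in DMSO, 64.06, 62.68 and 66.19 with BPA 0.25 nM, 57.29, 63.37 and 58.39 with BPA 2500 nM, and 62.87 and 65.69 with E2. It lay above DMSO with BPA 0.25 nM and E2, at a log2 change of 0.13 in both, and overlapped DMSO with BPA 2500 nM. TK1, the thymidine kinase of the salvage route, overlapped DMSO in every group.

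RRM2 and E2F1 had the largest gaps between neighbouring libraries among the 47 members, and both are named after their values were seen. RRM2, the small and cell-cycle-dependent subunit of ribonucleotide reductase, was at 24.33, 47.15 and 45.60 FPKM in DMSO, 48.25, 48.22 and 26.54 with BPA 0.25 nM, 26.52, 53.78 and 26.14 with BPA 2500 nM, and 52.47 and 28.91 with E2. Its libraries formed a low set of 5 (24.33 to 28.91 FPKM) and a high set of 6 (45.6 to 53.78 FPKM), and each of the 4 groups had libraries in both. E2F1, the transcription factor, was at 13.47, 6.71 and 13.16 FPKM in DMSO, 12.67, 14.60 and 15.19 with BPA 0.25 nM, 15.45, 7.16 and 14.28 with BPA 2500 nM, and 14.28 and 6.32 with E2. It was low in the second library of DMSO, of BPA 2500 nM and of E2 (6.32 to 7.16 FPKM) and high in the other 8 (12.67 to 15.45 FPKM). The low libraries of the 2 genes were different ones except E2 replicate 2. A gap of at least 1.5-fold between neighbouring libraries, with at least 3 libraries on each side, was present in these 2 of the 47 members (gaps of 1.77 for E2F1 and 1.58 for RRM2), and in 396 of all 12182 loci (3.25%) or 124 of the 6362 loci of a mean FPKM of at least 5 (1.95%). A count of 2 is too small to set the members apart from all loci in this. The next largest gap among the members was 1.3, in POLD3. The locus given as RRM2 spans 89900 bases, 8.38 times the annotated gene, and also covers AC007240.1. The partner RRM1 had no such gap. The confidence intervals of RRM2 and E2F1 reached from -1.04 to 1.18 over the comparisons with DMSO, so that sizeable changes in either direction were not excluded.

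**Figure D5:**
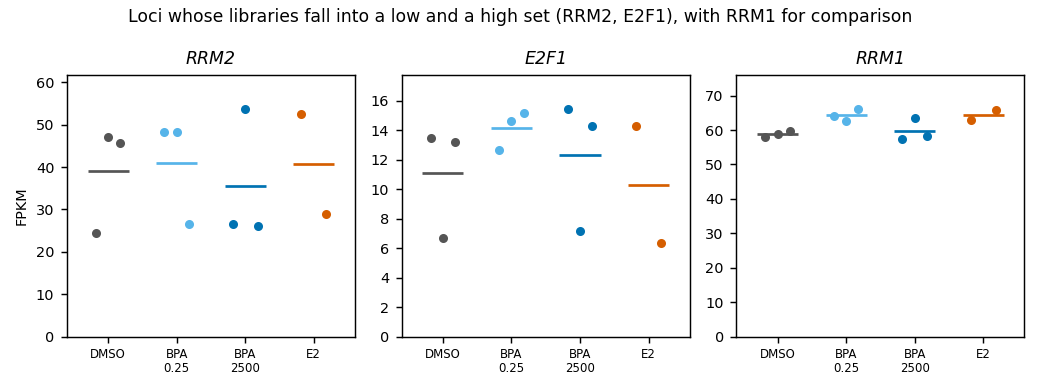
FPKM (y axis) in each library (points) and group means (lines) for RRM2 and E2F1, with RRM1 beside them. RRM2 is split between 24.33 to 28.91 and 45.6 to 53.78 FPKM and E2F1 between 6.32 to 7.16 and 12.67 to 15.45 FPKM, across treatments, whereas RRM1 has no gap.

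Counted by whether the libraries of a group lay wholly above those of DMSO, 15 members were higher and 0 lower with BPA 0.25 nM, against 9.01% and 8.05% of all tested loci. With BPA 2500 nM 11 were higher and 1 was lower, against 9.54% and 17.1%. With E2, whose 2 libraries separate more easily, 22 were higher and 1 was lower, against 12.2% and 16.2%. In all 3 treated groups at once, 4 members (MCM7, ORC1, POLE and RPA2) lay above all DMSO libraries. The share of all loci that did so was not computed, and the 3 groups are set against the same DMSO libraries. The smallest adjusted p of any member was 0.253 for the low dose of BPA, 0.0503 for the high dose and 0.147 for E2 (limma), and the median standard error of a member's log2 change was 0.07, 0.07 and 0.078.

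The members with an E2F-type motif in their promoter and those without had medians of the same sign. The median log2 change of the 21 with a motif was 0.11 for each BPA dose and 0.13 for E2. The 20 genes of the promoter table without it were at 0.08, 0.029 and 0.045 (low dose, high dose, E2). At an unadjusted p under 0.05, 7 of the 21 and 4 of the 20 were higher with BPA 0.25 nM, 7 and 1 with BPA 2500 nM, and 4 and 6 with E2, where the shares over all loci were 5.24%, 6.05% and 6.2%. In the lower direction the only such member was 1 of the 20, RFC1 with BPA 2500 nM (11.2% of all loci were lower). The difference between these sets was not tested.

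Between the BPA doses, 0 of the 47 genes were called under limma (0.0657% of all loci). At an unadjusted p under 0.05, 3 were lower and 0 higher at 2500 nM, where 5.69% of all loci were lower, 2.12% higher and 7.81% either. The 3 were RFC1 (log2 -0.10, adjusted p = 0.564), RFC4 (-0.17, adjusted p = 0.575) and RRM1 (-0.11, adjusted p = 0.631). RFC4 was at 22.57, 24.06 and 22.08 FPKM with 0.25 nM and 20.42, 21.06 and 19.04 with 2500 nM. CDC45, RFC1 and RFC4 lay wholly below at the higher dose (12.0% of all loci did so), and 0 members lay wholly above (4.66%). The log2 difference, higher dose minus lower, was above 0 in 19 members (37.4% of all loci), with a median of -0.012 against -0.03 over all loci. That median was -0.048 without BPA 2500 nM replicate 2 and 0.006 without BPA 2500 nM replicate 3, and 0.02 when libraries were rescaled by their median of ratios, so it has no fixed sign. MCM7 had means of 64.83 FPKM at 2500 nM and 64.66 at 0.25 nM, and the 95% interval of its log2 difference was -0.087 to 0.094. A difference that misses the threshold does not show that the doses act alike.

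E2 differed from the BPA groups in a few members at an unadjusted p under 0.05, and in 0 after adjustment (0.0493% of all loci were called against BPA 0.25 nM and 0.041% against BPA 2500 nM). Against BPA 0.25 nM, RFC3 (log2 0.18, adjusted p = 0.268), DBF4 (0.28, 0.288), ORC2 (0.18, 0.336) and CDC6 (0.36, 0.394) were higher and POLD2 (-0.30, 0.288) and POLD1 (-0.15, 0.381) were lower under limma. Against BPA 2500 nM, RFC1 (0.14, 0.537), RFC3 (0.18, 0.537) and ORC2 (0.21, 0.537) were higher and POLD2 (-0.22, 0.547) was lower. At that p, 4.47% of all loci were higher and 8.09% lower against BPA 0.25 nM (12.6% either), and 5.32% higher and 3.69% lower against BPA 2500 nM (9.01% either). The E2 libraries lay wholly above BPA 0.25 nM in 10 members and below in 4 (10.8% and 16.9% of all loci). Against BPA 2500 nM they lay above in 10 and below in 1 (13.4% and 10.3%). ORC2, at 13.27 and 14.91 FPKM with E2, lay above all 9 other libraries, which ran from 11.57 to 13.19. The log2 change was above 0 in 27 members against BPA 0.25 nM (46.0% of all loci) and in 29 against BPA 2500 nM (53.3%). The medians of the 47 were 0.033 and 0.049, and these became 0.019 and 0.023 without E2 replicate 2.

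Other genes of the cell cycle give the setting of these values. Of 26 tested regulators of G1 and S phase (cyclins, E2F factors and pocket proteins), 0 were called in any comparison with DMSO. At an unadjusted p under 0.05, 1 was lower with BPA 0.25 nM, 4 were higher and 2 lower with BPA 2500 nM, and 8 were higher and 0 lower with E2. In either direction these are 3.85%, 23.1% and 30.8% of the list, against 9.11%, 17.2% and 15.4% of all loci. RBL2, a pocket protein that represses E2F targets in resting cells, was at 6.917 ± 0.323 FPKM (SD, n = 3) with BPA 2500 nM and 8.383 ± 0.553 in DMSO, a log2 change of -0.24 (adjusted p = 0.0771, limma). CCNA2, the cyclin of S and G2 phase, was at 83.84 ± 8.66 FPKM with E2 (n = 2) and 70.84 ± 2.91 in DMSO, a log2 change of 0.24 (adjusted p = 0.163, limma). The median log2 change of these regulators was 0.034, 0.059 and 0.093 for BPA 0.25 nM, BPA 2500 nM and E2.

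Of 53 further tested replication genes, 1 was called against DMSO, with BPA 2500 nM, where 1.3% of all loci were called. It was DCTPP1, an enzyme that breaks down deoxycytidine triphosphate. DCTPP1 rose from 28.29 ± 1.89 FPKM in DMSO to 37.46 ± 0.591 with BPA 2500 nM (SD, 3 libraries each). The log2 change of DCTPP1 was 0.40 ± 0.058 (SE, adjusted p = 0.0185, limma), and the call was lost without any 1 of the 3 BPA 2500 nM libraries, with adjusted p up to 0.0933. The median log2 change of the 53 was 0.023, 0.007 and 0.055. At an unadjusted p under 0.05, 0 were higher and 0 lower with BPA 0.25 nM. With BPA 2500 nM 3 were higher and 4 lower, and with E2 5 were higher and 2 lower. In either direction these are 0%, 13.2% and 13.2% of the 53, beside 9.11%, 17.2% and 15.4% of all loci. Of 38 genes of G2 and mitosis 0 were called, and 5, 6 and 7 were higher and 0 lower at an unadjusted p under 0.05. These are 13.2%, 15.8% and 18.4% of the list, beside the 9.11%, 17.2% and 15.4% of all loci, and the medians were 0.027, 0.042 and 0.09. KIF20A, a mitotic kinesin, was among the 4 smallest p of that list in all 3 comparisons, at 22.21 ± 0.998 FPKM in DMSO and 24.68 ± 0.503, 25.14 ± 0.505 and 24.9 ± 0.665 for BPA 0.25 nM, BPA 2500 nM and E2.

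Of 22 tested genes of quiescence and of kinase inhibitors, 2 were called, both lower with BPA 2500 nM. In that comparison 1.3% of all loci were called, in either direction. CCNG2, a cyclin linked to cell cycle arrest, fell from 3.837 ± 0.254 to 2.02 ± 0.219 FPKM (SD, 3 libraries each), a log2 change of -0.68 (adjusted p = 0.00281, limma). The CCNG2 call held in all 11 fits that left out 1 library and was lost, at 0.0529, when only the DMSO and BPA 2500 nM libraries were fitted. PDCD4, an inhibitor of translation, fell from 4.15 ± 0.115 to 2.723 ± 0.0702 FPKM (log2 change -0.47, adjusted p = 0.0219, limma). The PDCD4 call was lost without any 1 of the DMSO or BPA 2500 nM libraries, with adjusted p up to 0.0986. For BPA 0.25 nM and E2 the log2 changes of CCNG2 were -0.26 (adjusted p = 0.368) and -0.40 (adjusted p = 0.0561, limma). Of 14 tested histone genes, H1F0, a linker histone that is not tied to S phase, was called lower with BPA 2500 nM (log2 change -0.37, adjusted p = 0.0497, limma), a call lost in 9 of 11 fits that left out 1 library. The median log2 change of the quiescence list was -0.048, -0.054 and 0.03. At an unadjusted p under 0.05, 2 of its 22 genes were higher and 3 lower with BPA 0.25 nM. With BPA 2500 nM 0 were higher and 3 lower, and with E2 1 was higher and 6 were lower. In either direction these are 22.7%, 13.6% and 31.8% of the list, against 9.11%, 17.2% and 15.4% of all loci.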

How the data were processed

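RNA of 11 libraries was compared in 6 pairs of groups. The authors deposited 1 FPKM value per locus and library. The submitters' processing notes list HISAT, UMI-tools, StringTie and edgeR, without versions or settings, and the build hg19, but 74.8% of 14123 Ensembl loci have the start and end of GENCODE 29 on GRCh38, so positions are given on GRCh38. The test took the 12182 loci that reached FPKM 1 in 2 or more libraries, as log2(FPKM + 1), which understates the change of low genes. Group means of the 11 libraries were estimated jointly in limma (version 3.58.1, R version 4.3.3), using its trend and robust options with statmod 1.5.0. The fit has 7 residual degrees of freedom. Tests were two-sided with Benjamini-Hochberg adjustment over all tested loci per comparison, at 0.05. Promoter windows came from RefSeq (GRCh38.p14). Tables were made with pandas 2.3.3 and numpy 2.4.6 under Python 3.11.15, and plots with matplotlib 3.10.9.

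Per-library values are printed for the 6 members with the smallest p in each comparison with DMSO and for any member called. Members outside this rule for which per-library values are printed, such as CDT1, CDC6, POLE2, DBF4, CDC7, POLD2, PCNA, RFC4, ORC2, RRM2 and E2F1, were chosen after their values were seen. Members and gene lists were chosen with earlier results of these data known. Precision rests on the spread between libraries.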

Additional observations from a re-analysis of the deposited data

How the results depend on the processing

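With a mean FPKM of at least 5, pseudocount 0.1, no filter on low values, only the groups compared, rescaling by the median of ratios, no trend or robust setting, loci that name 1 gene, the replicate block, the second replicates of DMSO and E2 left out, or 1 library left out at a time, 280 of 300 recomputed counts and medians of the members stayed within 1.5 times (counts) or within 0.028, the SD within groups (medians); the others follow. Many of the 300 are counts of called members, which were 0 in every main comparison. By this rule they stay the same unless a member is called. For BPA 2500 nM against DMSO, a fall of the median from 0.061 to 0.037 also lies within the margin. The 280 are therefore no measure of how stable the results are. The log2 changes of the 6 members with the smallest p in each comparison with DMSO were recomputed and kept their sign, and those of other members were not. With BPA 2500 nM, 1 member was called in place of 0 at a mean FPKM of at least 5 and with rescaling. Rescaling moved the median for BPA 2500 nM against DMSO to 0.091 and against BPA 0.25 nM to 0.02. The count at an unadjusted p under 0.05 for E2 was 7 with only the groups compared. Without the second replicate of DMSO and E2, added after seeing the data, the counts were 8, 5 and 5 and the medians 0.062 (BPA 0.25 nM) and 0.094 (E2). Leaving out 1 library at a time gave 5 to 13, 3 to 11 and 7 to 14 members at that p for BPA 0.25 nM, BPA 2500 nM and E2, medians of 0.062 to 0.108, 0.037 to 0.084 and 0.099 to 0.13, and -0.048 to 0.006 between the doses; 0 to 1 members were called with BPA 2500 nM, and 0 in the other comparisons. Where E2 keeps 1 library, that library is assumed to vary like the other groups. The share of all loci at an unadjusted p under 0.05 in the recomputed fits is not given here. A shift of these member counts that is common to all loci therefore cannot be told apart. Calls over all loci for BPA 2500 nM went from 158 to 39 without a filter, 13 with only the groups compared and 102 at a mean FPKM of at least 5; the causes were not tested. Read depth is unknown, so no limit from it can be given.

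The deviations of same-numbered libraries of different groups had correlations of -0.117 to 0.164, and those of differently numbered libraries -0.164 to 0.166. The deviations of the 2 E2 libraries mirror each other, since they are taken from their own mean. The labels do not say whether a number marks a shared culture or batch, and these correlations cannot settle it. With the replicate number as a block, 0 members were called in each comparison, the medians were 0.092, 0.061, 0.111, -0.012, 0.031 and 0.038, and 11, 10 and 10 members had an unadjusted p under 0.05 in the comparisons with DMSO. Calls over all loci moved from 2, 158 and 51 to 1, 38 and 5 in these. The share of all loci at an unadjusted p under 0.05 with the block is not given here, so the member counts lack that comparison.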
